A study of Mus musculus and Homo sapiens with 22 samples.

Results

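The comparison described here set N2A cells carrying a stable hairpin against nSR100 beside N2A cells carrying a stable hairpin against GFP, a protein the cells do not make. N2A is a mouse neuroblastoma line. Genes were taken into the comparison when they had at least 1 RPKM and at least 50 reads in 1 of the 2 files, where RPKM is reads scaled by gene length and by the total reads of the file. This gave 11649 of the 22667 genes in the table. Of these, 140 met both minimums only in shGFP and 157 only in shnSR100.

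The study asked how nSR100, Ptbp1 and U2af65 act on alternative splicing, and its 22 samples also hold human cells and binding profiles that were not analysed here. In the hairpin groups, lentiviruses carried an shRNA against GFP (shGFP) or against the 3′ UTR of the nSR100 transcript (shnSR100). Both populations were held under 2 ug/mL puromycin, and per the labels each file joined 2 runs that differed in read length. The other N2A files came from cells harvested 48 hours after transfection of siRNA: control siRNA a, control siRNA b, a pool against U2af65 (siU2af65, letter a) and a pool against Ptbp1 (siPtbp1, letter b). There was thus 1 file per hairpin, with no replicate check and no test. Differences below are log2(RPKM + 1) in shnSR100 minus shGFP, which understates the change of low genes, and the 2 control siRNA files show how far single N2A files lay apart.

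nSR100 is a serine/arginine-rich protein, encoded by Srrm4, that promotes the inclusion of neuronal exons, above all the very short ones called microexons. It is made in neurons and in some neuroendocrine and neuroblastoma cells. One of its known target exons lies in the transcript of Rest, a repressor that keeps neuronal genes silent in other cells, and REST in turn represses Srrm4. The values here are reads per gene and do not measure exon inclusion.

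Reads in genes came to 60220620 for shGFP and 73600542 for shnSR100, and to between 63952996 and 77138004 in the siRNA files. The N2A identity markers Tubb3, Stmn2, Chga, Phox2a, Hand2 and Gata2 were above 25 RPKM in all 6 N2A files, whereas Nefm and Nefl were at or below 0.12 RPKM in each. The 2 hairpin files were closer to each other (81 genes at 2-fold or more) than to control siRNA a (1833 genes against shGFP) or control siRNA b (827 genes against shGFP). Delivery, selection and the siRNA itself cannot be told apart in that gap. Among markers of other cells, Ptprc and Kdr were listed at 0 in every file, and Epcam did not exceed 0.01 RPKM. Vwf was 14.1 RPKM in shGFP and 16.5 in shnSR100 against at most 1.23 in the siRNA files, and Dcn was 3.99 and 5.70 against at most 0.54. The 12 fibroblast markers summed to 23.4 RPKM in shGFP and 23.6 in shnSR100, and the 15 endothelial and epithelial markers to 21.8 and 24.8. The 17 glial markers summed to 129 and 92.7 RPKM, of which Pmp22 held 107 and 68.6, and the 16 immune markers summed to 111 and 105, of which Cd74 held 101 and 97.0. The glial marker Pdgfra went the other way, from 2.74 RPKM in shGFP to 5.82 in shnSR100, with at most 0.53 in the siRNA files. The part of these markers in the results below was not tested. In bulk RNA, fewer cells of a type and less RNA per cell cannot be told apart.

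Srrm4, the targeted gene, stood at 11.6 RPKM in shGFP and 2.50 in shnSR100. In the siRNA files the order ran from siPtbp1 at 4.51 RPKM and control siRNA a at 4.54 to control siRNA b at 8.37 and siU2af65 at 12.0. The shnSR100 file was the lowest of the 6, and the controls among themselves spread more than 2-fold. The difference was -1.85, and the level in shnSR100 was 21.5% of shGFP (95% exact binomial counting interval 20.2 to 22.8%). Such intervals cover counting error only. Set against the 2 control siRNA files in place of shGFP, the difference was -1.04.

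Srrm3, the closest relative of Srrm4 and itself a regulator of neuronal microexons, was lower as well, at 14.6 RPKM in shGFP and 6.61 in shnSR100, a difference of -1.03. That is 45.3% of shGFP (counting interval 42.8 to 48.0%). Control siRNA a held 8.42 RPKM and control siRNA b 11.2, so shnSR100 was again below all 3 control files. The broadly expressed relatives differed less. Srrm2, a scaffold of nuclear speckles, was 122 RPKM in shGFP and 92.5 in shnSR100 (difference -0.40), and Srrm1, a splicing coactivator, was 90.3 and 88.9 (difference -0.02).

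**Figure D1:**
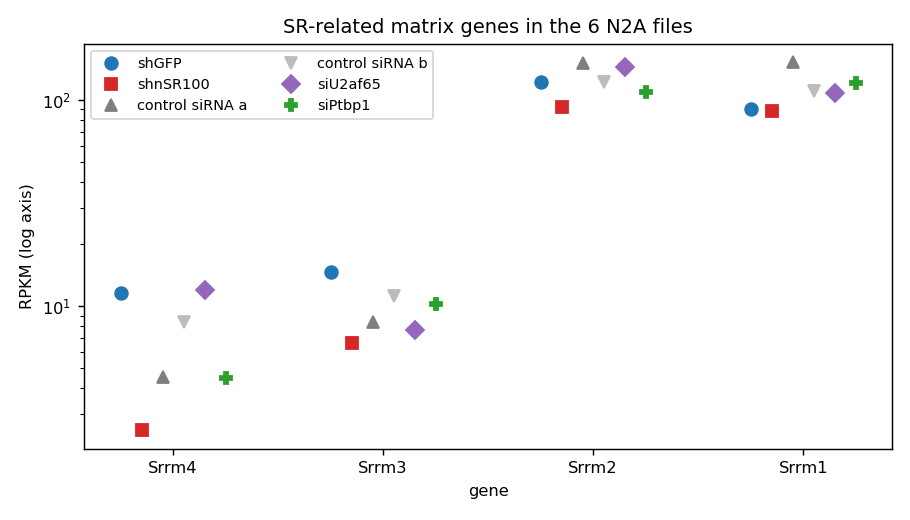
RPKM (log axis) of the 4 SR-related matrix genes in the 6 N2A files, 1 point per file. The shnSR100 square is the lowest point for Srrm4 (2.50 RPKM), Srrm3 (6.61 RPKM), Srrm2 (92.5 RPKM) and Srrm1 (88.9 RPKM), with the smallest gap to shGFP for Srrm1.

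Over all 11649 genes the median difference was 0.04, with 6508 genes above 0 and 5114 below. Counts above or below 0 in the lists are to be read beside these. At 2-fold or more, 20 genes (0.172%) were higher and 61 genes (0.524%) lower in shnSR100. At 1.5-fold or more, 326 genes (2.8%) were higher and 407 (3.49%) lower. Between control siRNA b and a, which received no knockdown, 62 of 11118 genes (0.558%) were higher and 85 (0.765%) lower at 2-fold, and 906 (8.15%) and 257 (2.31%) at 1.5-fold. The hairpin pair thus held fewer genes past 2-fold than a pair of control files. Of the 61 lower genes, 48 had a level in shnSR100 below shGFP and both control siRNA files, and of the 20 higher genes 17 had a level above all 3. Against the control siRNA files alone the median of all genes was 0.20, and against the mean of the 3 control files 0.15, and medians given below for those controls are to be read beside these values. Over all genes 16.28% lay below and 37.17% above the 3 control files. The 2-fold rule itself places its genes beyond shGFP, so only the control siRNA files add to the counts of 48 and 17. The shares over all genes carry no such selection and are not a like comparison. At the edge of the 2-fold rule, Rem2 (difference -1.01) was just inside and Col22a1 (difference -0.9988) just outside on the low side. On the high side Cbfa2t3 (1.003) was just inside and Myb (0.998) just outside. At the edge of the 1 RPKM minimum, Pcdhb6 stayed out with 0.99 RPKM in shGFP.

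**Figure D2:**
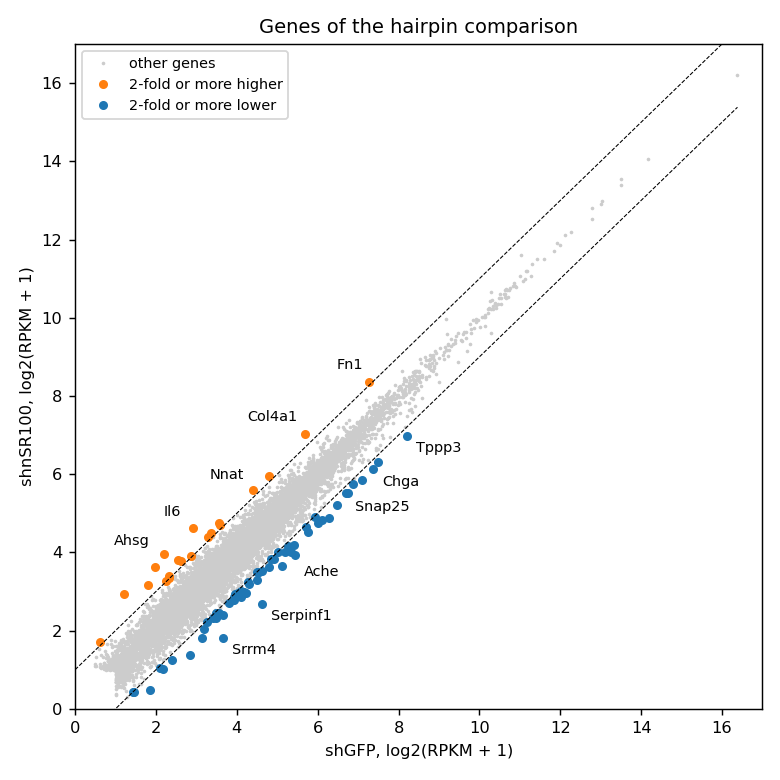
log2(RPKM + 1) in shnSR100 against shGFP for the 11649 genes, 1 point per gene, with dashed lines at 2-fold. The 61 lower genes (blue) include Srrm4, Chga, Snap25 and Tppp3, and the 20 higher genes (orange) include Fn1, Col4a1, Il6 and Ahsg.

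Of the 61 lower genes, 14 belonged to 7 lists, 6 of neuronal genes and 1 of splicing regulators that also holds broadly expressed ones such as Srrm1, Srrm2 and Ptbp1. These lists together hold 168 measured genes, of which 139 were below 0, with a median of -0.39, and 0 were 2-fold higher. At 1.5-fold, 52 were lower and 1 higher. The lists were chosen with earlier results of these data known, so these counts describe the files.

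In the list of splicing regulators, several CELF genes and Nova2 were lower along with Srrm4. Celf3, a neuronal CELF protein that binds RNA and acts on splicing, was 67.3 RPKM in shGFP and 27.3 in shnSR100, with 33.2 and 28.7 in control siRNA a and b. Its shnSR100 level was close to that of control siRNA b, and shGFP stood above the other 3 files. Celf6 was 14.2 RPKM in shGFP and 6.29 in shnSR100, against 11.9 and 11.3 in the control siRNA files, so here shnSR100 stood apart. Celf5 (difference -0.98), Celf4 (-0.85), Nova2 (-0.82) and Elavl3 (-0.71) also passed 1.5-fold. In all, 8 of 31 measured genes in this list were 1.5-fold lower, 0 were higher, the median was -0.15, and 15 lay below all 3 controls. Ptbp1 was 124 RPKM in shGFP and 156 in shnSR100 (difference 0.33), within the range of the controls. Ptbp2 had a difference of -0.15 and Rbfox2, another neuronal exon regulator, of -0.28.

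The general splicing factors differed little. Of 24 hnRNP genes, 23 were above 0 with a median of 0.20 and none passed 1.5-fold, and Hnrnpa2b1 was 242 RPKM in shGFP and 307 in shnSR100. Of 17 measured SR proteins and Tra2 genes, 14 were above 0 with a median of 0.11, and Srsf9 had the largest difference of those named, 0.54, from 53.3 to 78.1 RPKM. Of 19 genes for U2AF and 3′ splice site factors, 17 were above 0 with a median of 0.11. U2af2 was 90.3 RPKM in shGFP and 104 in shnSR100 (difference 0.20). These medians were 0.06 to 0.29 when set against the control siRNA files.

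Genes known as targets of REST were lower as a group. Most measured genes of this REST list also stand in the cytoskeleton, ion channel, synaptic or granin lists below. The lists are thus not separate groups of genes. Of 28 measured genes in the REST list, 27 were below 0, with a median of -0.68 (0.11 between control siRNA b and a), 17 were 1.5-fold lower and 0 higher. In 21 of the 28, shnSR100 lay below all 3 control files. Against the control siRNA files alone the median was -0.61. Chga, which encodes the secretory granule protein chromogranin A, was 164 RPKM in shGFP and 68.6 in shnSR100, with 112 in control siRNA a and 118 in control siRNA b. The shnSR100 level was the lowest of the 6 files, and the difference was -1.24. Snap25, a SNARE protein of synaptic vesicle fusion, was 102 RPKM in shGFP and 44.5 in shnSR100 against 96.1 and 107 in the control siRNA files. Syn1, which encodes synapsin I on synaptic vesicles, was 21.5 and 8.83 RPKM against 25.2 and 16.9. Neither gene's shnSR100 level overlapped its controls. Hcn3, a channel of the hyperpolarisation-activated family, had a difference of -1.14. Rest itself was 10.8 RPKM in shGFP and 12.6 in shnSR100 (difference 0.21), within the range of the control files, and the 18 measured genes of the REST complex had a median of 0.06.

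REST binds a motif called RE1, and promoters of the measured genes were searched for its core, CAGCACC and GGACAG separated by 2 bases, on both strands, with at most 1 mismatch over the 13 bases compared. The windows were the RefSeq promoters of GRCm38.p6, from 250 bases before to 50 bases after a gene's start. A match was found for 57 of 27025 genes (0.211%), and 22 of them were measured here. Of those 22, 19 were below 0 and 3 above, the median was -0.39, and 5 were 1.5-fold lower and 0 higher. The 3 above 0 were Mtrr (0.46), Dcun1d4 (0.10) and Tigar (0.003). By share, 22 of 9102 measured genes with a promoter had a match (0.242%), as did 3 of 20 such genes of the REST list (15%). Among such genes 2-fold lower it was 2 of 47 (4.3%). At 1.5-fold it was 5 of 281 lower genes (1.78%) and 0 of 260 higher genes. Genes printed below were picked after their values were seen, and all were below 0. Left out were, for example, Tmem179 (-0.60) and the exact match Lca5 (-0.07). The matches of the genes below show the sequence beside the value, with the bases compared in capitals and 4 flanking bases on each side in lower case.
Lhfpl5: gtttCAGCACCgcGGCCAGcgcc
Syn1: gattCAGCACCgcGGTCAGagcc
Ttc9b: gcatCAGCACCggGGACAGcgcg
Fbll1: cagtCAGCACCagGGACAGctac
Celsr3: cgttCAGCACCgtGGGCAGcact
Gria2: atttTAGCACCgcGGACAGcgct
The sites lie at chr17:28575641-28575663 (minus strand) for Lhfpl5, chrX:20921130-20921152 (minus strand) for Syn1, chr7:27653938-27653960 (minus strand) for Ttc9b, chr11:35799054-35799076 (plus strand) for Fbll1, chr9:108825916-108825938 (plus strand) for Celsr3 and chr3:80802987-80803009 (plus strand) for Gria2. Ttc9b and Fbll1 match with 0 mismatches. The differences were -1.25 for Lhfpl5, -1.19 for Syn1, -0.85 for Ttc9b, -0.82 for Fbll1, -0.55 for Celsr3 and -0.54 for Gria2. Ttc9b was 38.0 RPKM in shGFP and 20.6 in shnSR100, below 34.2 and 35.4 in the control siRNA files. Fbll1 and Celsr3 did not lie below all 3 controls. A match is a description of the window, and binding was not measured here.

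The neuronal cytoskeleton showed the same direction, in a list that shares genes such as Tubb3, Stmn2 and L1cam with the REST list. Of 31 measured genes for the pan-neuronal cytoskeleton and axon growth, 30 were below 0 with a median of -0.67 (-0.02 between control siRNA b and a), and 18 were 1.5-fold lower with 0 higher. In 23 of them shnSR100 was below all 3 control files. Stmn4, a stathmin that binds tubulin in neurons, was 63.3 RPKM in shGFP and 25.7 in shnSR100, against 56.9 and 44.0 in the control siRNA files. Stmn2, another stathmin, was 287 and 146 RPKM against 333 and 268. Tubb3, the neuronal beta-tubulin, was 324 and 193 RPKM against 390 and 383. In these 3 genes shnSR100 was lower than every control file. L1cam, an adhesion molecule of growing axons, had a difference of -0.98 and Nefh, a neurofilament subunit, of -0.86. Ncam1 had one of -0.06.

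Ion channels and receptors, and synaptic genes, were lower with smaller medians. Of 39 measured ion channel and transmitter receptor genes, 35 were below 0 (median -0.42), and 11 were 1.5-fold lower. Against the control siRNA files that median was -0.05, beside 0.20 over all genes. The shGFP file itself stood above them by a median of 0.26 for this list and 0.18 over all genes. Scn3b, a sodium channel beta subunit, was 16.2 RPKM in shGFP and 7.08 in shnSR100, with 11.1 and 12.0 in the control siRNA files. Cacna1b, the pore of the N-type calcium channel, was 18.97 and 10.1 RPKM against 22.3 and 23.5. Of 39 measured synaptic genes, 34 were below 0 with a median of -0.35, and 7 were 1.5-fold lower. Unc13a, which primes synaptic vesicles, was 51.8 RPKM in shGFP and 24.0 in shnSR100 against 66.4 and 51.7. Dlg4, which encodes PSD-95, had a difference of -0.33.

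Of 14 measured granin and neuropeptide genes, 11 were below 0 with a median of -0.48, 5 were 1.5-fold lower and 1 was higher. Scg3, a granin partner of chromogranin A, was 180.0 RPKM in shGFP and 99.1 in shnSR100 against 132 and 143. The higher gene was Npy, a neuropeptide of sympathetic neurons, at 24.0 and 43.6 RPKM against 20.2 and 12.0. Nppb, which encodes a natriuretic peptide, was 2.63 and 0.39 RPKM but at most 0.25 in the control siRNA files, so shGFP was the file that differed. Its shnSR100 level rests on 21 reads (14.8% of shGFP, counting interval 8.84 to 23.7%). Ache, which encodes acetylcholinesterase, was 42.4 RPKM in shGFP and 14.4 in shnSR100, but 23.4 and 14.2 in the control siRNA files. Its shnSR100 level was thus close to control siRNA b, and shGFP was the file that stood apart. Mycn, an oncogene of neuroblastoma, was 26.9 and 11.3 RPKM against 24.3 and 17.02.

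Genes that carry neuronal microexons differed by little in total level. Of 35 measured genes known to carry one, 30 were below 0, with a median of -0.16, and 1 was 1.5-fold lower. That gene was Ank3, which encodes ankyrin G, at 15.1 RPKM in shGFP and 9.14 in shnSR100, against 15.9 and 15.7 in the control siRNA files. Src, whose neuronal form carries a microexon, was 8.07 and 5.82 RPKM against 5.15 and 5.96, so its shnSR100 level lay within the control range. Daam1 (difference -0.40) and Mef2a (-0.39) were likewise within it. Against the control siRNA files the median of the list was 0.05, which was still below the 0.20 over all genes.

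**Figure D3:**
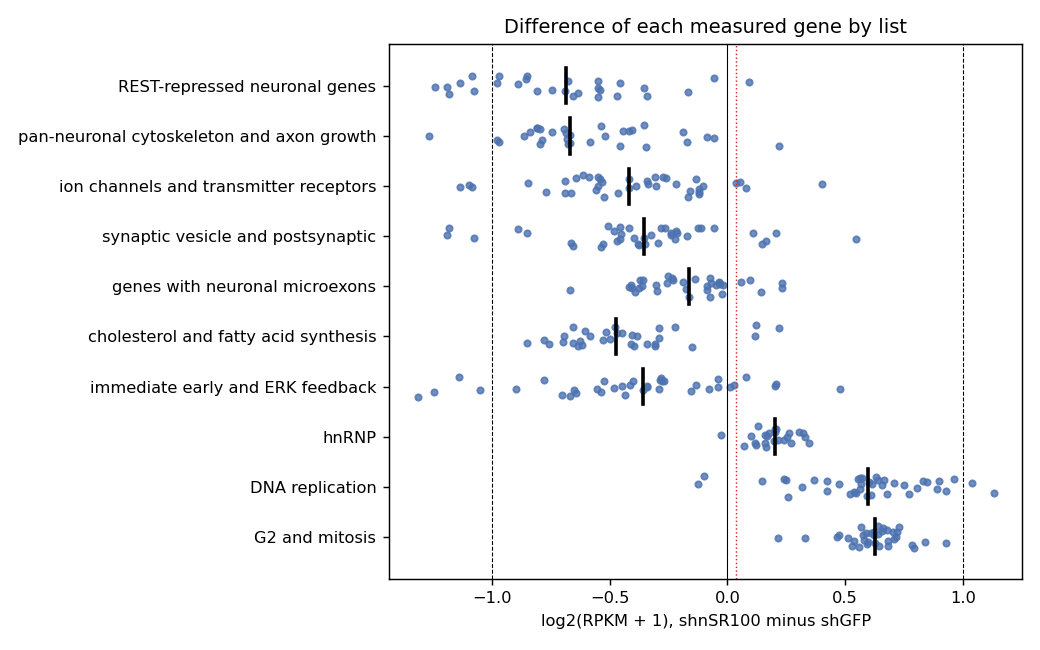
Difference in log2(RPKM + 1), shnSR100 minus shGFP, of each measured gene in 10 lists (1 point per gene), with the list median as a black bar, the median of all genes (0.04) as a dotted red line and 2-fold as dashed lines. Of the 28 REST-repressed genes 27 lie left of 0, and all 35 mitosis genes lie right of it.

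Sterol and fatty acid synthesis genes were lower too. Of 32 measured genes 29 were below 0, with a median of -0.47 (0.23 between control siRNA b and a), 12 were 1.5-fold lower and 0 higher. In 25 of them shnSR100 lay below all 3 control files, and against the control siRNA files the median was -0.50. Fdft1, which encodes squalene synthase, was 92.7 RPKM in shGFP and 53.6 in shnSR100, with 147 and 145 in the control siRNA files. Cyp51, the sterol demethylase, was 78.6 and 48.1 RPKM against 80.4 and 98.3. Both were lower in shnSR100 than in any of the 3 control files. Acaca, the first enzyme of fatty acid synthesis, had a difference of 0.22.

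Immediate early genes and feedback genes of the ERK pathway, which respond fast to growth signals, had a median of -0.36 over 37 measured genes, with 10 that were 1.5-fold lower and 0 higher. Egr1, a transcription factor induced by ERK, was 39.4 RPKM in shGFP and 15.2 in shnSR100. It was 128 in control siRNA a and 59.1 in control siRNA b, so the 3 control files spread over a wider range than the hairpin pair. Dusp6, a phosphatase that switches off ERK, was 136 and 56.8 RPKM against 79.8 and 75.6. Outside this list, Lin28a, a blocker of let-7 processing, was 37.6 and 16.9 RPKM against 46.0 and 54.7. It stands in the small RNA machinery list, where 1 of 17 measured genes was 1.5-fold lower and the median was 0.01. Dusp6 and Lin28a lay below all 3 controls.

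Some of the 20 lowest genes belonged to none of the lists. Serpinf1, which encodes the secreted factor PEDF, had the largest difference of all genes, at 23.8 RPKM in shGFP and 5.39 in shnSR100. It was 20.5 and 29.2 in the control siRNA files, so shnSR100 stood alone. Cacng3, a regulatory subunit of AMPA receptors, was 33.6 and 11.6 RPKM against 53.9 and 42.8. Galnt2, which starts O-linked glycosylation, was 77.1 and 28.4 RPKM against 35.4 and 61.0, so control siRNA a lay near shnSR100. Tppp3, a tubulin-binding protein, was 294 and 126 RPKM against 145 and 159. Elovl4, which makes very long fatty acids, was 17.8 and 6.75 RPKM against 15.2 and 19.95.

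A few further genes past 2-fold lower are given here, picked after their values were seen. Ptprn, a protein of dense-core secretory vesicles, was 106 RPKM in shGFP and 44.97 in shnSR100 against 59.1 and 66.1 in the control siRNA files. Nmnat2, an axon survival factor that makes NAD, was 31.6 and 15.2 RPKM against 16.7 and 23.9. In both, shnSR100 was the lowest of the 4 control and hairpin files. Pcp4, a calmodulin-binding peptide, was 179 and 78.7 RPKM against 56.0 and 55.1, and Resp18, a secretory granule protein, was 116 and 53.1 against 48.0 and 48.6. In these genes shGFP was high and shnSR100 lay nearer to the control siRNA files. Slc12a5, the neuronal chloride exporter KCC2, was 9.96 and 4.22 RPKM against 3.14 and 5.18, within the control range.

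Cell cycle genes were higher in shnSR100 than in shGFP. Of 75 measured genes for mitosis and DNA replication, 45 were 1.5-fold higher and 0 lower, with a median of 0.61. All 40 listed genes for DNA replication were measured, 38 were above 0, and the median was 0.60 (0.20 between control siRNA b and a). Mcm3, a subunit of the replicative helicase, was 32.0 RPKM in shGFP and 61.7 in shnSR100, with 58.0 and 58.5 in the control siRNA files. Tyms, which makes thymidylate, was 9.26 and 21.5 RPKM against 9.43 and 12.2. Cdc6, which loads the helicase at origins, was 6.34 and 14.1 RPKM against 6.04 and 10.4. In 20 of the 40 genes (50%) shnSR100 lay above all 3 controls, beside 37.17% over all genes. Tyms and Cdc6 did so with a clear gap and Mcm3 by a narrow one. Pcna, the sliding clamp, was 76.8 and 117 RPKM against 125 and 139, so the shnSR100 level was below both control siRNA files. Against those files alone the median of the list was 0.11, below the 0.20 over all genes. The shGFP file itself had a median of -0.48 for this list against them, beside 0.18 over all genes. The higher replication level thus depended on the control.

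The mitosis genes depended on the control as well. All 35 measured genes were above 0, with a median of 0.63, and 24 were 1.5-fold higher. Against the control siRNA files the median was -0.48, and against the mean of the 3 control files -0.12, a change of sign in both. Birc5, which encodes survivin, was 62.7 RPKM in shGFP and 113 in shnSR100, with 102 and 89.1 in the control siRNA files, and it was the 1 gene of this list above all 3 controls. Aurkb, a mitotic kinase, was 17.3 and 30.4 RPKM against 42.1 and 33.9. Top2a, a topoisomerase, was 99.0 and 142 RPKM against 298 and 274. Nuf2, a kinetochore protein, was 18.6 and 36.2 RPKM against 37.6 and 35.6. For this list shGFP was the low file, by a median of -1.06 against the control siRNA files.

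Promoters were searched on both strands for the E2F words TTTCGCGC and TTTGGCGC as exact matches, counted once per gene, where a word on one strand may overlap one on the other. E2F proteins are the transcription factors known for driving replication genes. A match was found for 251 of 27025 genes (0.929%), for 171 of 9102 measured genes with a promoter (1.88%), for 9 of 30 such replication genes (30%) and for 15 of 260 such genes that were 1.5-fold higher (5.77%). It was found for 1 of 29 mitosis genes (3.45%), which was Cdk1, for 0 of 17 genes 2-fold higher and for 1 of 281 genes 1.5-fold lower (0.356%), which was Mycn. Among the 171 measured genes 121 were above 0, with a median of 0.14. All 9 matching replication genes were above 0, and 3 of them, picked after their values were seen, are printed. Left out were, for example, Mcm5 (0.85) and E2f2 (0.26). The words stand in capitals in these 3 and in Cdk1, the mitotic kinase gene, and the same window and build were used.
Mcm3: aagtTTTGGCGCcaag
Mcm7: gacgTTTCGCGCcaat
Orc1: aactTTTCGCGCcact
Cdk1: tcccTTTCGCGCtctg
The sites lie at chr1:20820263-20820278 (minus strand) for Mcm3, chr5:138171856-138171871 (minus strand) for Mcm7, chr4:108579423-108579438 (minus strand) for Orc1 and chr10:69353032-69353047 (minus strand) for Cdk1. The differences were 0.93 for Mcm3, 0.67 for Mcm7, 0.56 for Orc1 and 0.62 for Cdk1. The Mcm7 site also lies in the promoter window of Ap4m1 (difference 0.18), and the Orc1 site in that of Prpf38a (difference 0.02). Mycn had a difference of -1.18.

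The 20 genes that were 2-fold higher came from several groups. Col4a1, a basement membrane collagen, was 50.8 RPKM in shGFP and 130.5 in shnSR100, with 31.2 and 39.3 in the control siRNA files. Fn1, which encodes fibronectin, was 153 and 329 RPKM against 112 and 99.9. Il6, a cytokine, was 6.50 and 23.5 RPKM against 5.08 and 12.3. In these 3 genes shnSR100 was above every control file. Bak1, a cell death effector, was 10.9 and 26.1 RPKM against 6.84 and 7.08. E2f7, a repressor in the E2F family, was 5.16 and 12.7 RPKM against 6.25 and 7.69. Cdon, a co-receptor for Hedgehog ligands, was 4.00 and 9.57 RPKM against 2.98 and 2.51, and Gli1, a transcription factor and target of that pathway, was 0.53 and 2.25 against 0.03 and 0.07. Both were above all 3 controls.

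Several of the higher genes were near 0 in the siRNA files. Ahsg, which encodes the serum protein fetuin-A, was 3.61 RPKM in shGFP and 14.7 in shnSR100 but at most 0.12 in the 4 siRNA files. Gpnmb, a lysosomal glycoprotein, was 1.32 and 6.63 RPKM but at most 0.06. Pf4, which encodes platelet factor 4, was 8.72 and 20.04 RPKM but at most 0.46. Each was thus a gene of both hairpin files, with the higher level in shnSR100. Mt1, a metallothionein, was 2.94 and 11.3 RPKM and at most 0.83 in the siRNA files. Nnat, an imprinted gene, was 20.2 and 47.4 RPKM and at most 4.78. Peg10, Capn6 and Enpp1 were instead higher still in both control siRNA files. Capn6, a calpain-related gene, was 10.9 RPKM in shGFP and 24.8 in shnSR100 but 64.7 and 50.4 in the control siRNA files, so its shnSR100 level was within the control range.

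**Figure D4:**
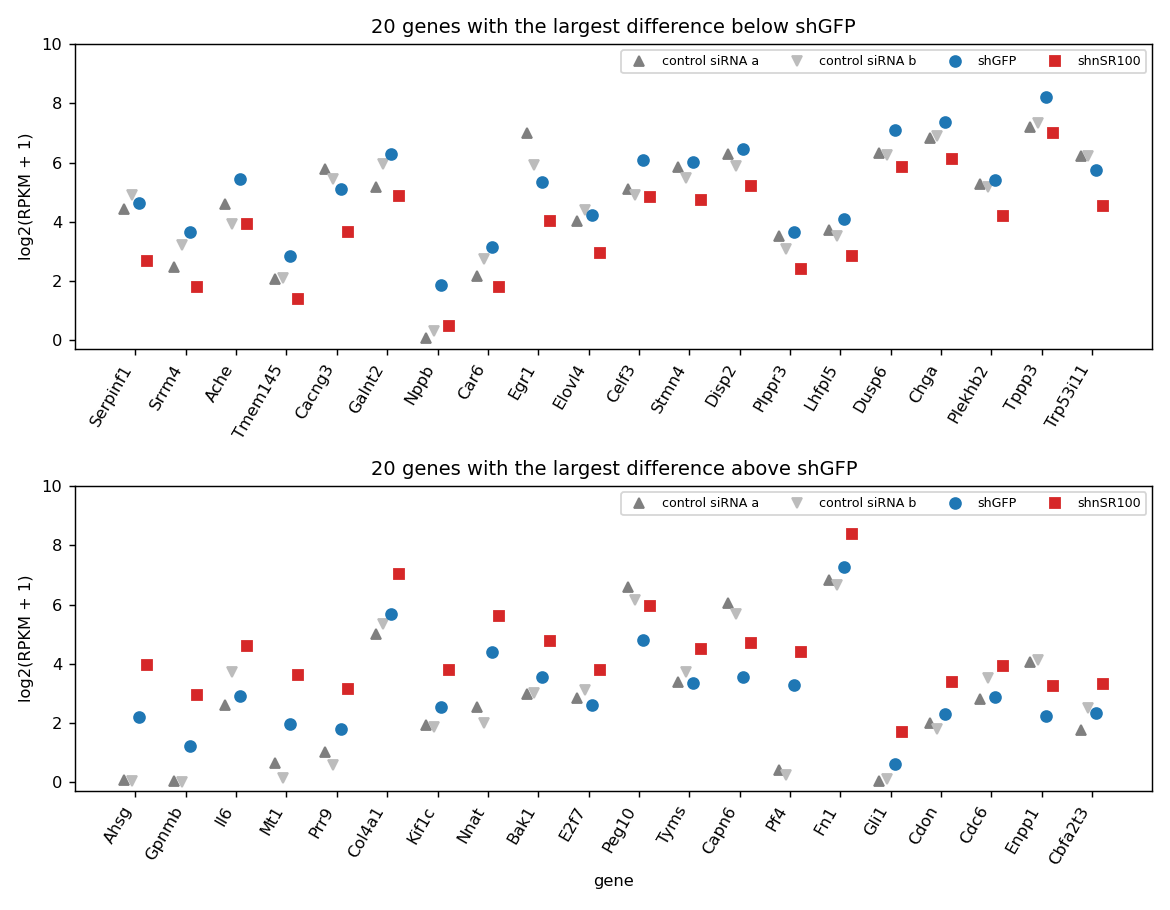
log2(RPKM + 1) of the 20 genes with the largest difference below shGFP (upper panel) and the 20 above it (lower panel) in shGFP, shnSR100 and control siRNA a and b, 1 point per file. Serpinf1 is lowest in shnSR100 (5.39 RPKM), whereas Ahsg, Gpnmb and Pf4 lie near 0 in both control siRNA files, and Capn6 and Enpp1 lie above the hairpin files there.

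Matrix, adhesion and guidance genes differed in both directions. Of 28 measured genes for extracellular matrix and basement membrane, 3 were 1.5-fold higher and 4 lower, with a median of -0.12, and both hairpin files stood above the control siRNA files by medians of 1.15 (shGFP) and 1.14 (shnSR100). Ncan and Bcan, proteoglycans of the brain matrix, had differences of -1.16 and -0.97, and both were lower in the control siRNA files than in shnSR100. Of 29 measured axon guidance genes, 2 were 1.5-fold higher and 1 lower. Nrp1, a receptor for semaphorins and VEGF, was 16.8 RPKM in shGFP and 29.7 in shnSR100 against 10.9 and 15.3 in the control siRNA files. Plxnc1, a plexin receptor, had a difference of 0.78, with 19.6 RPKM in shnSR100 against 7.72 and 14.9 in those files. Both were above all 3 controls. Of 17 measured clustered protocadherins, 4 were 1.5-fold lower, with a median of -0.34. Against the control siRNA files their medians were 0.57 in shGFP and 0.33 in shnSR100, beside 0.18 and 0.20 over all genes. In 2 of the 17 (11.8%) shnSR100 lay below all 3 control files, beside 16.28% over all genes.

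Other pathways showed small medians. The interferon and double-stranded RNA response had a median of 0.04 over 32 measured genes, with 2 that were 1.5-fold higher. These were Ifitm3 (73.2 RPKM in shGFP, 121 in shnSR100, at most 7.96 in the siRNA files) and Bst2 (68.8 and 107), both antiviral membrane proteins. Medians were 0.04 for 25 p53 targets, 0.24 for 26 endoplasmic reticulum chaperone genes, -0.12 for 33 genes of the ATF4 response, -0.03 for 76 ribosomal protein genes, 0.11 for 64 nuclear respiratory chain genes and 0.16 for 19 genes of nonsense-mediated decay. Of the 37 measured glycolysis and hypoxia genes 5 were 1.5-fold lower, and the median was -0.09. Between control siRNA b and a that list had a median of -1.25.

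In the order of genes along the chromosomes, 6 stretches of 3 neighbouring measured genes all differed by 1.5-fold or more in 1 direction. The higher stretch was Taf1d, Cep295 and Smco4. The 5 lower ones included Stra6, Islr and Islr2, where Stra6, a retinol transporter, was 16.2 RPKM in shGFP and 7.81 in shnSR100, and Pcdhb9, Pcdhb10 and Pcdhb11, 3 clustered protocadherins with 1.30 to 2.63 RPKM in shGFP. Overlapping or similar genes may share reads in such stretches.

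The comparisons of siPtbp1 with control siRNA b and of siU2af65 with control siRNA a share no file with the hairpin pair. At 1.5-fold, 108 of 11121 genes were higher (0.971%) and 263 lower (2.36%) in siPtbp1, and 2495 of 11244 higher (22.2%) and 1069 lower (9.51%) in siU2af65. Of the genes measured in both comparisons, 42 were 1.5-fold higher in shnSR100 and in siPtbp1, which is 14.2% of the 296 in shnSR100 and 40.8% of the 103 in siPtbp1. In the lower direction 25 were shared, 6.56% of 381 and 9.58% of 261. Opposite directions in siPtbp1 were seen for 7 of the 296 higher and 9 of the 381 lower genes. At 2-fold, 0 of 14 higher and 0 of 58 lower genes were shared, where siPtbp1 had 5 and 28. With siU2af65, 41 higher genes were shared (13.9% of 294, 1.71% of 2401) and 87 went in opposite directions, and 82 lower genes were shared (22.1% of 371, 7.82% of 1049) with 46 opposite. DNA replication genes had a median of 0.53 in siPtbp1, and Pcna was 139 RPKM in control siRNA b and 259 in siPtbp1. REST-repressed genes had medians of -0.04 in siPtbp1 and -0.13 in siU2af65, beside -0.68 for the hairpin pair. Sterol and fatty acid genes had medians of 0.01 and -0.46, and mitosis genes 0.16 and -0.91.

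**Figure D5:**
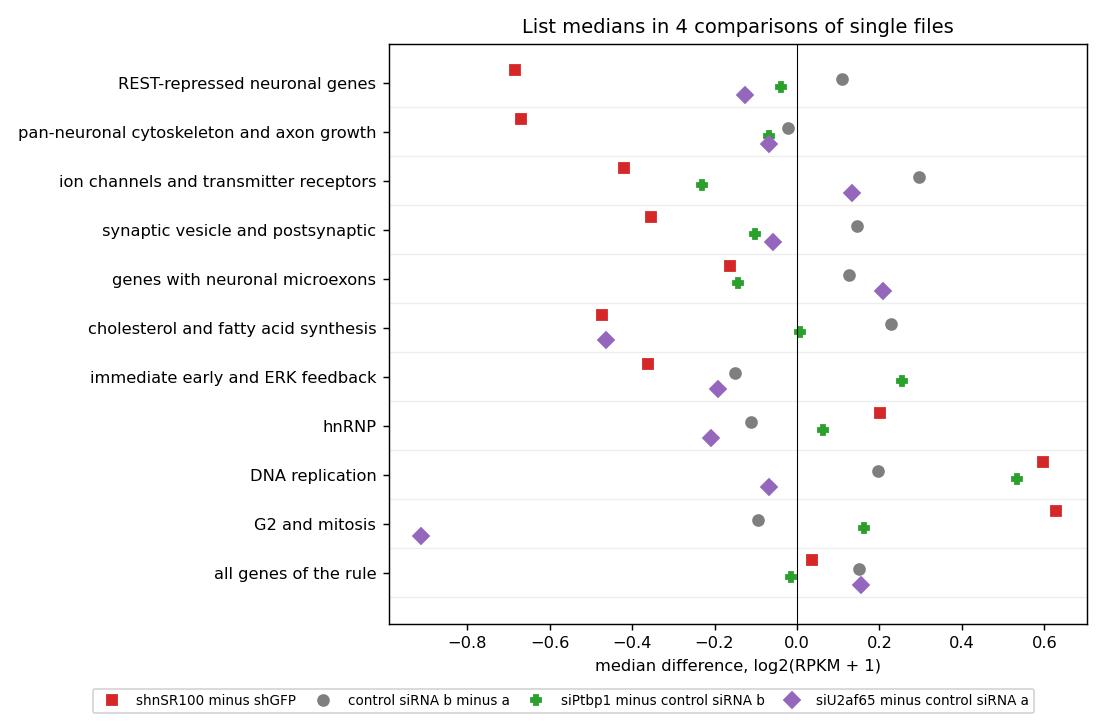
Median difference in log2(RPKM + 1) of 10 lists and of all genes in 4 comparisons of single files, 1 point per comparison. The red squares (shnSR100 minus shGFP) lie at -0.68 for REST-repressed genes and at 0.63 for mitosis genes, where the siU2af65 point lies at -0.91.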

How the data were processed

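RNA-seq of N2A cells was analysed from the gene tables the authors deposited, which hold a read count and an RPKM per Ensembl gene without a header. The submitters' processing notes list the tools Bowtie and bedtools 2.17.0, and mm9 beside hg19, without saying what each was for. How reads were counted, on which strand and with which annotation is not given in the sources used here. The RPKM of 1114 genes is given as the mark ne in the deposited tables, in place of a number, and these were left out. Symbols matched 20759 of 22667 identifiers.

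Differences are log2(RPKM + 1) with a pseudocount of 1 RPKM. Genes named are Srrm1 to Srrm4, Ptbp1, Ptbp2, Rest, Dlg4 and U2af2, the 20 highest and 20 lowest, and up to 4 per list with the largest absolute difference at 5 RPKM or more. Others were chosen after their values were seen, as were the 1.5-fold rule for lists and the motif searches. Members and the 45 lists were chosen with earlier results of these data known. Alternatives were pseudocounts of 0.1 and 5, filters, edgeR 4.0.16 TMM factors (R 4.3.3) and other controls. Python 3.11.15 with pandas 2.3.3, numpy 2.4.6 and scipy 1.17.1 was used, and scripts were tested on simulated data. Promoter sequences are from RefSeq (GRCm38.p6). Results for some genes are not reported here.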

Additional observations from a re-analysis of the deposited data

How the results depend on the processing

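No paired analysis was possible because the 2 runs of each hairpin group were combined into 1 file, and for the same reason no replicate could be left out. With a pseudocount of 0.1, 57 genes were 2-fold higher and 126 lower, and with 5 RPKM the counts were 7 and 19; a larger pseudocount shrinks the fold of low genes by construction. With no filter 36 were higher. Against the mean of shGFP and both control siRNA files 389 were higher and 93 lower, and against the control siRNA files alone 1012 and 218. The Srrm4 difference was -2.17 and -1.15 with those pseudocounts, and -1.31 and -1.04 with those controls. TMM scaling (18 higher, 66 lower) and minimums of 5 RPKM and 200 reads (19 and 55) gave counts within 1.5 times of 20 and 61. TMM scaling, with factors of 0.99 for shGFP and 1.01 for shnSR100, shifts genes by a small amount and cannot turn a 2-fold difference. Thus all 20 higher and all 61 lower genes kept their sign under it. Against the control siRNA files alone 17 of the 20 and 51 of the 61 did. Against those files 13 of the 81 genes changed sign: Peg10 (-0.42), Capn6 (-1.17), Enpp1 (-0.84), Ncan (0.52), Nppb (0.27), Pirt (1.07), Klf2 (0.74), Pcp4 (0.49), Svop (0.31), Mmp9 (0.21), Trim67 (0.21), Resp18 (0.13) and Slc12a5 (0.05). Bcan, under 2-fold, did too (1.27). Against the mean of the 3 controls Capn6 (-0.41), Enpp1 (-0.22), Pirt (0.33), Klf2 (0.11) and Bcan (0.52) did. The cause was not tested. Counting error is wide for genes with few reads, and the spread between hairpin cultures was not measured.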
